A study of Homo sapiens with 6 samples.

Results

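The immediate early genes and the AP-1 transcription factors they encode were examined in HCT-116 cells, an established human colorectal carcinoma line. 10 genes were listed by name (IER2, IER3, IER5, FOS, FOSL1, JUN, JUNB, JUND, EGR1 and ATF3) and looked up among the 27918 rows of the deposited expression table. 9 of the 10 were found, and all 9 were among the 16028 loci that averaged at least 0.1 FPKM. No row named IER5. IER3 stood in a row that the transcript assembly had joined with its neighbor FLOT1, so its values are those of the FLOT1;IER3 locus. The genes were selected on the FPKM values of this same comparison, which earlier results had shown, and their differences are therefore given as a description, with no test.

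3 libraries came from cells transfected with a negative control GapmeR (GapNC) and 3 from cells transfected with a GapmeR against the long noncoding RNA CASC9 (GapC9). A GapmeR is a chemically modified antisense oligonucleotide that directs RNase H to cleave the RNA it pairs with. The comparison asked which genes change in expression after CASC9 knockdown in this 1 cell line. Nothing in the sample records says whether the 3 libraries of a group came from separate cultures, so the spread between them may be technical.

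Immediate early genes are transcribed within minutes of a growth factor, stress or damage signal, without new protein synthesis, and their mRNAs are usually short-lived. ERK, p38 and JNK kinases drive them through SRF with its ELK partners, which read CArG boxes, and through CREB and ATF proteins, which read cyclic AMP response elements (CRE). The Fos and Jun proteins pair through leucine zippers to form AP-1, which with ATF3 and EGR1 goes on to control later genes for growth, migration and survival, and in colorectal tumor cells part of this program can be kept active by mutated RAS.

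Copies of these elements lie in the promoters of several of the genes, and the stretches that hold them are shown here. Elements of these kinds are known entry points of the signals just described, and whether the copies marked act in these cells was not tested. RefSeq promoter sequence (GRCh38.p14) was found for 8 of the 10 genes, and the 250 bases before each start site were searched on both strands. Those start sites can differ from the starts of the GENCODE loci given further below. The JUN stretch lies inside the JUN locus given there, and the FOS stretch partly inside the FOS locus. The motifs were the CArG box, the full CRE TGACGTCA, its first 5 bases TGACG (which also match every full CRE), and the AP-1 site TGANTCA. Each line below gives the 150 bases that end just before the start site, 5′ to 3′ on the strand of the gene, with motif matches in capitals.
EGR1: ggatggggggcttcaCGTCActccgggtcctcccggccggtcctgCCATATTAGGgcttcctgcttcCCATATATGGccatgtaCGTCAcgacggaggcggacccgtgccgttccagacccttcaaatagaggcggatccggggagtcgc
FOS: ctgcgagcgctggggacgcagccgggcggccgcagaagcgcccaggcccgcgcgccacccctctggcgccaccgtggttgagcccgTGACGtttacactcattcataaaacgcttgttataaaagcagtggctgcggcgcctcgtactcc
JUN: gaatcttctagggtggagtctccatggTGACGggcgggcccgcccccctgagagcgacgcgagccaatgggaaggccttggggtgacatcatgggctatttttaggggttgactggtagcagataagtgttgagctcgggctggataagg
JUNB: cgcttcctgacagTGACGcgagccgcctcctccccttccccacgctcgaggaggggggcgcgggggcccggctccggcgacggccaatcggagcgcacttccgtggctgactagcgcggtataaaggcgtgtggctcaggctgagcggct
JUND: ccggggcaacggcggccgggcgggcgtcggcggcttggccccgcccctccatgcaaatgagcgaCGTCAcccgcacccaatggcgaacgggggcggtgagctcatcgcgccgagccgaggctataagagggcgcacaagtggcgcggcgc
IER2: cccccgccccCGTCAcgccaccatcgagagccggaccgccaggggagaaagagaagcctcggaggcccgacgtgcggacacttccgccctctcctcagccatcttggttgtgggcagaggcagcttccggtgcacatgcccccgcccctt
The EGR1 stretch (chr5:138465329-138465478, plus strand) held 2 CArG boxes, 105 and 83 bases before the start site, and 2 TGACG matches, both read on the other strand as CGTCA. A CArG box occurred in 1.16% of 35116 promoters of the same length. FOS (chr14:75278678-75278827, plus strand) held 1 TGACG match 64 bases before its start site, JUN (chr1:58784048-58784197, minus strand) 1 at 123 bases, JUNB (chr19:12791336-12791485, plus strand) 1 at 137 bases and IER2 (chr19:13150261-13150410, plus strand) 1 at 140 bases. JUND (chr19:18281623-18281772, minus strand) had 1 at 86 bases and a full CRE at 200 bases, upstream of the stretch printed. TGACG occurred in 21.2% of all promoters, the full CRE in 1.65% and the AP-1 site in 6.57%. No match to any of the 4 motifs was found for IER5 or for either of the 2 ATF3 promoters in these windows. Bases farther upstream were not searched, so a motif not found here, such as a CArG box of FOS, may lie there.

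The libraries held a depth estimated at 22.8 to 24.4 M (1e6) fragments. For this, the commonest small value of FPKM times length at loci with 1 listed transcript was taken as 1 fragment. It was sought within a range set beforehand, which bounds the estimate. Intervals beyond the spread between libraries were not available because no counts were used. FPKM is the number of fragments per kilobase of transcript and per 1e6 mapped fragments. The CASC9 row held 0, 0.0108 and 0 FPKM in GapNC, against 0.0528, 0.107 and 0 FPKM in GapC9. In this table the targeted RNA was therefore near 0 throughout and not lower in the libraries labelled GapC9. By RT-qPCR, a different measure, the paper reported less CASC9 in HCT-116 cells after this GapmeR. FPKM values this near 0 cannot show whether CASC9 fell in these libraries, and every direction below is one between labelled groups. Of the 11 colorectal epithelial markers the summed level was 1049 to 1440 FPKM in GapNC and 1032 to 1290 FPKM in GapC9, with CDX1 and VIL1 below the filter and CLDN3 listed at 0 in 5 libraries. 9 markers of blood, fibroblast, endothelial and liver cells summed to 54.4 to 61.5 and 54.2 to 58.7 FPKM, nearly all of it from a joined locus that includes CD68. The deviation of GapNC replicate 1 from its gene means correlated with transcript GC content across 10117 genes (Spearman's rho = 0.62), against -0.38 to 0.02 in the other 5 libraries. The log2 difference between the groups correlated with GC content as well (rho = -0.34), and genes are not independent replicates. With limma on log2(FPKM + 0.1), 303 loci were higher and 817 lower in GapC9 at an adjusted p under 0.05. The split was 393 to 493 after median scaling, 347 to 516 after quantile normalization and 1141 to 1236 after a GC correction. Median scaling moved the median log2 difference of all loci from -0.08 to 0.03.

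In GapNC cells the level of the locus FLOT1;IER3 was the highest of the group, at 68.0 ± 9.49 FPKM (SD, n = 3). IER2 followed at 48.7 ± 4.98 FPKM and FOSL1 at 44.8 ± 8.56 FPKM, and these neighbors in the order overlapped. EGR1 came next at 18.7 ± 2.66 FPKM, then JUN at 11.1 ± 2.13, ATF3 at 6.03 ± 0.541 and FOS at 2.10 ± 0.286 FPKM. From the joined locus down to FOS, no other pair of neighbors in this order overlapped between its 3 libraries. JUNB and JUND were listed at 0 in some libraries and have no place in the order.

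2 of the 9 loci differed by at least 2-fold in mean FPKM: IER2 was lower in GapC9 and ATF3 was higher. Over all loci tested 12% differed by as much, 4.65% higher and 7.31% lower. The 3 libraries of one group lay apart from the 3 of the other at 3 loci, IER2 and FLOT1;IER3 (lower in GapC9) and ATF3 (higher), and the share of all loci with groups that did not overlap was 34.2%, 12.6% higher and 21.6% lower. Since the genes were picked with this contrast in view, nothing is read from these counts.

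**Figure D1:**
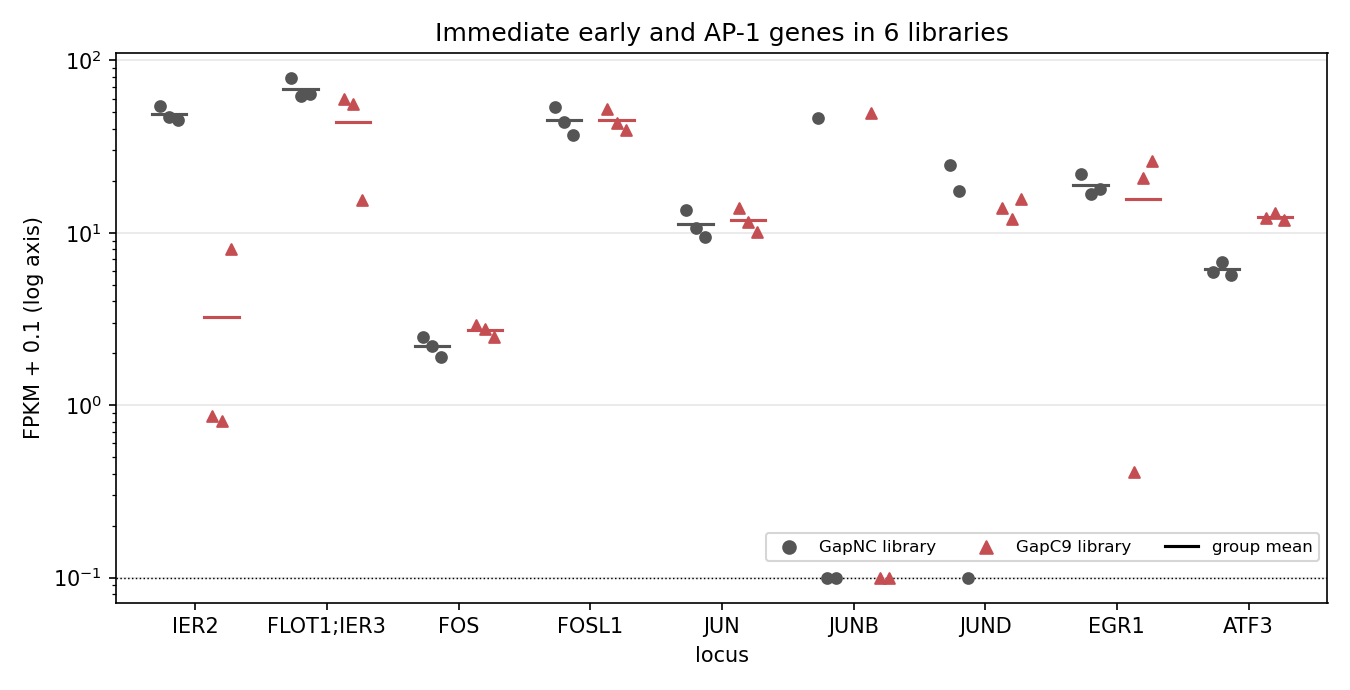
FPKM plus 0.1 on a log axis for the 9 loci found, with circles for the 3 GapNC libraries, triangles for the 3 GapC9 libraries (replicates 1 to 3 from left to right in each) and bars for group means where no library was listed at 0. IER2 triangles all lie under its circles and ATF3 triangles all lie over its circles, while JUNB has 4 libraries and JUND 1 on the dotted line, which marks a listed 0, and EGR1 has 1 GapC9 library near it.

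IER2 encodes a short nuclear protein that is induced with the classical immediate early genes. Its locus (GRCh38, chr19:13150415-13154908, plus strand, 3 annotated transcripts of 1 or 2 exons) was at 54.3, 47.1 and 44.7 FPKM in GapNC. In GapC9 it was at 0.769, 0.710 and 7.91 FPKM. The highest GapC9 library thus lay far under the lowest GapNC library, but the GapC9 libraries also differed from each other by 9.89 times on the scale of FPKM plus 0.1. The means were 48.7 ± 4.98 and 3.13 ± 4.14 FPKM (SD, n = 3), a ratio of 0.0643 (log2 ratio of means -3.96). Leaving out 1 library at a time put the log2 ratio between -6.04 and -3.49. The lowest value came without GapC9 replicate 3, so the size of the ratio depends on that library. After a GC correction the log2 ratio was -3.56, at a GC content of 61.7%, above that of 89.6% of the tested loci. In bulk RNA a loss in some cells and a lower level in every cell cannot be told apart.

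An annotated antisense gene, AC011446.2 (chr19:13153071-13154193, minus strand), overlaps IER2, and whether the authors counted by strand is not stated in the sources used here. Its own row held 0.18 to 0.461 FPKM across the 6 libraries. Fragments of the pair could not be told apart without strand. The row of IER2 listed 5 transcripts, 2 of them assembled from the reads by StringTie rather than taken from the annotation.

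The tested genes whose 6 values lay nearest to those of IER2 were found by the root mean square distance between log2(FPKM + 0.1) values centred on each gene's mean, over 10228 other genes averaging at least 1 FPKM. The nearest was ZNHIT2, at a distance of 0.864. It was at 11.4, 7.81 and 6.25 FPKM in GapNC, was listed at 0 in 2 GapC9 libraries and held 5.29 FPKM in GapC9 replicate 3, the library in which IER2 was also highest. NSMCE3 and TIGD5 came next, at distances of 1.09 each, and both were listed at 0 in all 3 GapC9 libraries after 2.52 to 3.42 and 2.06 to 3.0 FPKM in GapNC. A listed 0 can be a failed estimate, which was not tested for these genes. Their likeness to IER2 rests on those values, so nothing is read from it.

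IER3, a stress-inducible regulator of apoptosis, shared a row with FLOT1, which encodes a membrane raft protein and lies 466 bases from IER3 on chromosome 6. IER3 itself lies at chr6:30743199-30744554 on the minus strand. The joined locus held 78.9, 61.6 and 63.4 FPKM in GapNC and 59.8, 55.4 and 15.3 FPKM in GapC9. GapC9 replicate 3 stood well below the other GapC9 libraries, which were only just under the lowest GapNC library. The means were 68.0 ± 9.49 and 43.5 ± 24.5 FPKM (SD, n = 3), a ratio of 0.640. Without GapC9 replicate 3 the log2 ratio of means was -0.24, against -0.64 with all 6 libraries. How much of this row is IER3 cannot be read from a joined value.

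Among the Fos proteins, FOS is the founding member and FOSL1 (FRA-1) is the form linked to RAS-driven tumor cells. FOS (chr14:75278774-75282230, plus strand) was at 2.39, 2.10 and 1.82 FPKM in GapNC and at 2.83, 2.66 and 2.38 FPKM in GapC9. The lowest GapC9 library lay just under the highest GapNC library and the other GapC9 libraries lay above all 3. The ratio of means was 1.25. FOSL1 (chr11:65892049-65900573, minus strand) was at 53.8, 43.8 and 36.7 FPKM in GapNC and at 51.8, 43.0 and 39.2 FPKM in GapC9. These values were interleaved and the ratio of means was 0.997. Per length, FOSL1 was thus the more abundant of the Fos genes listed in both groups.

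JUN, the main AP-1 partner of the Fos proteins, is a single-exon gene (chr1:58780788-58784327, minus strand). It was at 13.5, 10.6 and 9.32 FPKM in GapNC and at 13.8, 11.5 and 10.1 FPKM in GapC9. The groups overlapped along their whole range, with a ratio of means of 1.06, and each value stood for an estimated 805 to 1126 fragments.

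JUNB and JUND encode the other Jun proteins, which pair with the same Fos partners and often restrain growth. JUNB (chr19:12791496-12793315, plus strand, 1 exon) was at 46.2, 0 and 0 FPKM in GapNC and at 49.3, 0 and 0 FPKM in GapC9. In each group 1 library, replicate 1, carried an estimated 1914 and 2065 fragments and the other libraries were listed at 0. A listed 0 next to such a value can be a failed estimate, and no ratio is given for JUNB. Its gene lies inside the span of HOOK2, on the opposite strand, whose row held 2.06 to 3.56 FPKM. JUND (chr19:18279760-18281622, minus strand) was at 24.7, 17.3 and 0 FPKM in GapNC and at 13.8, 11.9 and 15.6 FPKM in GapC9. Here the listed 0 fell in GapNC replicate 3 alone, and the fitted log2 difference of 1.97 turned to -0.59 without that library. JUNB and JUND had the highest GC content of the members found, at 64.9% and 69.7%, above 95.8% and 99.5% of the tested loci.

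EGR1, a zinc finger activator and the member with 2 CArG boxes in the stretch shown above, lies at chr5:138465490-138469315 on the plus strand. It was at 21.7, 16.6 and 17.9 FPKM in GapNC and at 0.311, 20.7 and 26.1 FPKM in GapC9. GapC9 replicate 1 held an estimated 22 fragments, where the other 5 libraries held 1216 to 1938. The ratio of means was 0.837, but 2 of the 3 GapC9 libraries were within or above the GapNC range. Without GapC9 replicate 1 the log2 ratio of means was 0.32, against -0.26 with all 6 libraries, so the direction rests on that library.

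ATF3, a stress-induced bZIP factor that dimerizes with Jun proteins, was the member that was higher in every GapC9 library. Its locus (chr1:212565334-212620777, plus strand, 11 annotated transcripts of 2 to 5 exons) was at 5.84, 6.64 and 5.60 FPKM in GapNC and at 12.1, 13.0 and 11.7 FPKM in GapC9. The libraries of each group lay close together, within 1.18 times of each other on the scale of FPKM plus 0.1. The means were 6.03 ± 0.541 and 12.3 ± 0.663 FPKM (SD, n = 3), a ratio of 2.03. Leaving out 1 library at a time kept the log2 ratio of means between 0.97 and 1.10, and median scaling and a GC correction gave 1.14 and 1.08. In GapC9 the level of ATF3 overlapped that of JUN, which it had not in GapNC.

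**Figure D2:**
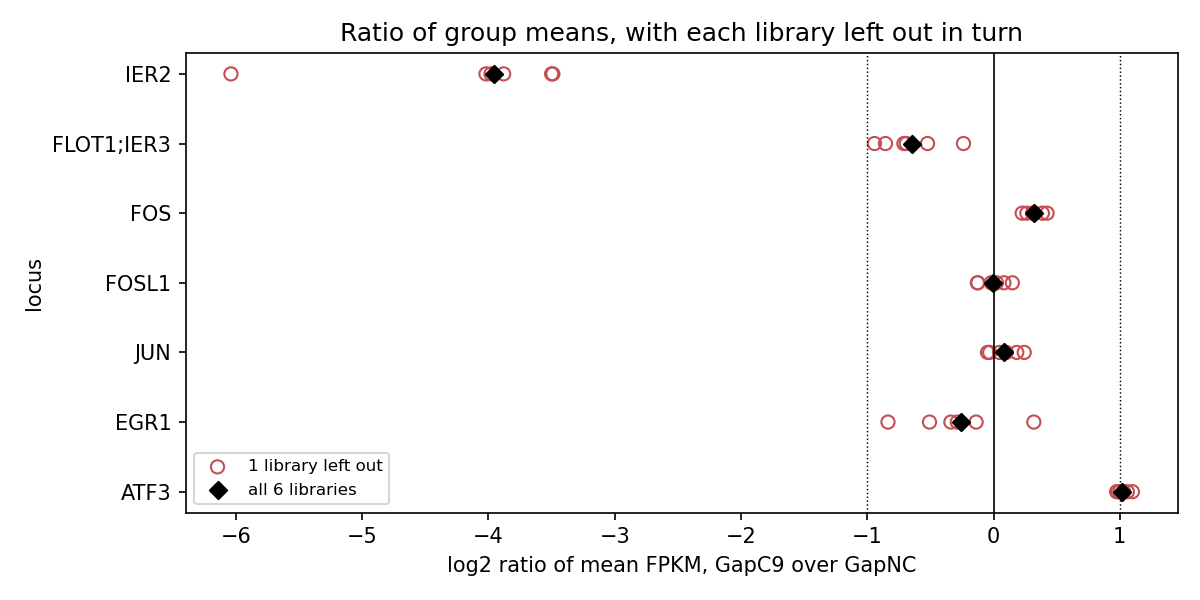
Log2 ratio of mean FPKM, GapC9 over GapNC, for the 7 loci with no library listed at 0, with diamonds for all 6 libraries, open circles for each library left out in turn and dotted lines at a 2-fold difference. IER2 stays at or below -3.49 and ATF3 stays between 0.97 and 1.10, while EGR1 falls on both sides of 0.

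The members just inside and just outside the 2-fold line were ATF3, at a ratio of 2.03, and the FLOT1;IER3 locus, at 0.640. Of the 7 loci with no library listed at 0, FOSL1 and JUN lay closest to an even ratio in the values as deposited. With the GC correction EGR1 was closest, at a log2 ratio of means of -0.00861. FOSL1, JUN and FOS were then at 0.297, 0.315 and 0.485, so this order depends on the scaling.

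4 of the 9 loci (IER2, JUNB, JUND and EGR1) held libraries of the same group that were at least 4 times apart on the scale of FPKM plus 0.1, a limit chosen after the values were seen. The ratios between highest and lowest library of a group were 9.89 for IER2, 63.7 for EGR1, 248 for JUND and 494 for JUNB, and FLOT1;IER3 was just under the limit at 3.89. Among the 10229 loci averaging at least 1 FPKM, 656 (6.41%) were as far apart within a group. The share was 158 of 316 (50%) for loci with a single exon in every listed transcript and 449 of 9785 (4.59%) for multi-exon loci. JUN and JUNB are single-exon loci, and IER2, JUND and EGR1 have at most 2 exons. At a mean of at least 10 FPKM the shares were 39.1% and 3.38%, so the contrast was also present among well-covered loci. The part of exon structure in the values of single members was not tested. Single-exon loci were called higher in 1.5% and lower in 1.41% of 1136 cases at an adjusted p under 0.05, against 1.92% and 5.41% of 14756 multi-exon loci.

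**Figure D3:**
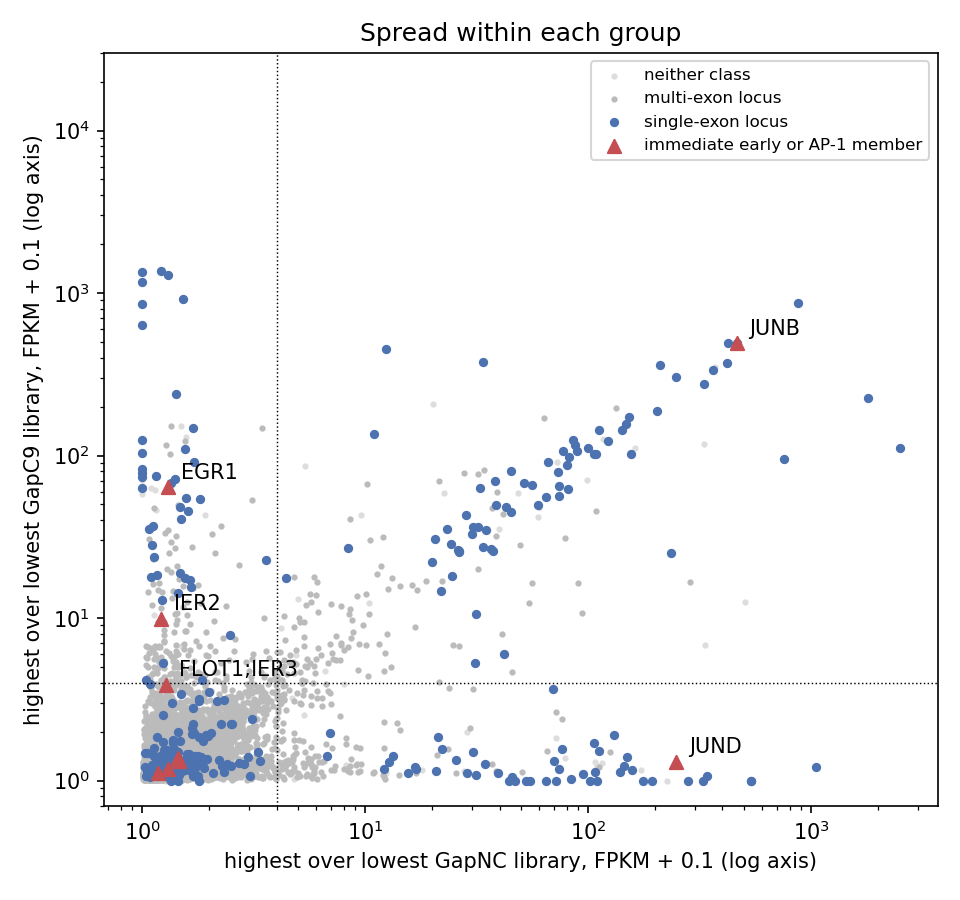
Highest over lowest library within GapNC (horizontal) and within GapC9 (vertical), both of FPKM plus 0.1 on log axes, for 10229 loci averaging at least 1 FPKM, with single-exon loci in blue, multi-exon loci in grey, members as red triangles and dotted lines at 4 times. JUNB is far apart in both groups, JUND in GapNC, and EGR1 and IER2 in GapC9.

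Beyond the members, 45 other immediate early genes were taken from textbook knowledge, of which 44 were tested. This list and those that follow were written with earlier results of these data known. Their shares beside those of all loci are therefore a description. 10 of the 44 were higher in GapC9 and 0 were lower at an adjusted p under 0.05 (limma), against 1.89% of all tested loci higher and 5.1% lower. With no adjustment of p, at 0.05, 18 stood higher and 2 lower, where all loci gave 9.09% and 16.8%, and limma without the trend called 8 higher and 0 lower. The median log2 difference of the list was 0.36, against -0.08 over all tested loci, and 32 of the 44 were higher by sign, as were 43.6% of all tested loci. By the study's rule, a mean ratio of at least 2 or at most 0.5 with p under 0.05 before adjustment, the list gave 6 higher and 0 lower, against 2.1% and 4.32% of all loci. Only the thresholds are the study's: p came from limma here and from edgeR in the study. Loci that meet the rule here and below need not be those the study called. With 1 library left out the adjusted count was 1 to 7: 1 without GapNC replicate 2 or any single GapC9 library, 2 without GapNC replicate 3 and 7 without GapNC replicate 1. Over all loci the adjusted count fell from 1120 to between 34 and 814 in these fits, so the loss of a call was common to most loci.

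CTGF, a secreted matricellular protein gene induced by serum and TGF-β, was the clearest of them. It was at 9.72, 10.4 and 9.26 FPKM in GapNC and at 35.1, 36.8 and 34.9 FPKM in GapC9. The log2 difference was 1.85 ± 0.0907 (SE, limma, adjusted p = 0.00202), and it held an adjusted p of at most 0.0151 in all 6 fits with 1 library left out. TNFAIP3, which encodes the NF-κB inhibitor A20, was at 2.51, 2.41 and 1.74 FPKM in GapNC and at 5.27, 5.16 and 5.24 FPKM in GapC9. BTG1, an antiproliferative factor, rose from 2.04 ± 0.0649 to 4.2 ± 0.458 FPKM (SD, n = 3). Each of these 3 genes was at least 2-fold higher, with no overlap between groups. With 1 library left out the adjusted p stayed under 0.05 in 2 of 6 fits for TNFAIP3 and 1 of 6 for BTG1. In those fits the log2 difference was 1.06 to 1.31 for TNFAIP3 and 0.917 to 1.07 for BTG1.

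The Fos family members outside the list of 10 rose as well. FOSB went from 0.169 ± 0.0748 to 0.555 ± 0.0632 FPKM (SD, n = 3, limma adjusted p = 0.0454), a level under 1 FPKM throughout. FOSL2 went from 11.2 ± 0.714 to 15.9 ± 0.570 FPKM, a log2 difference of 0.50. Each failed the adjusted threshold in at least 5 of the 6 fits with 1 library left out.

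DUSP4 and DUSP6, phosphatases that switch off ERK and are induced by it, rose by 0.59 each on the log2 scale. DUSP4 was at 49.9 to 60.7 FPKM in GapNC and at 80.2 to 84.6 FPKM in GapC9. DUSP1, which acts on the same kinases, was at 3.63 ± 0.702 and 2.60 ± 1.08 FPKM with overlapping libraries. PLK2, a polo-like kinase, rose by 0.57, PPP1R15A (GADD34), which helps to dephosphorylate the initiation factor eIF2, rose by 0.83, and SGK1, a serum-induced kinase, rose by 0.70 at a level under 1 FPKM. Of these 5 genes none kept an adjusted p under 0.05 in more than 1 of the 6 fits with 1 library left out.

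EGR3 and NR4A3 met the study's rule and missed the adjusted one, with log2 differences of 0.92 and 0.97 at means under 1 FPKM. EGR2, the other EGR gene named, was at 0.195 to 0.351 FPKM in GapNC and at 0.269 to 0.422 FPKM in GapC9. MYC was at 47.2 to 59.6 and at 41.3 to 50.1 FPKM, IER5L at 8.89 to 15.3 and at 7.08 to 9.73 FPKM, and these ranges overlapped.

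**Figure D4:**
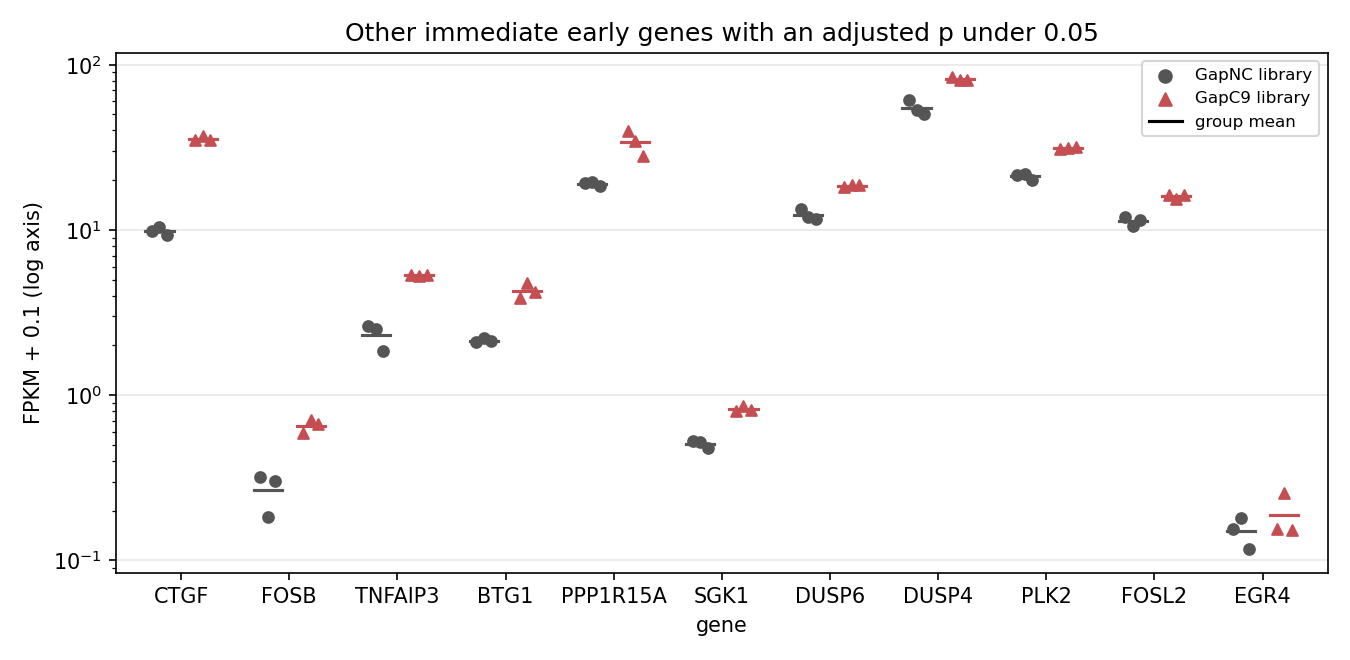
FPKM plus 0.1 on a log axis for the 10 other immediate early genes with an adjusted p under 0.05, with circles for GapNC libraries, triangles for GapC9 libraries and bars for group means. In each gene all 3 GapC9 libraries lie above all 3 GapNC libraries, and CTGF has the widest gap.

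ZFP36 encodes tristetraprolin, an immediate early protein that binds AU-rich elements and speeds mRNA decay. It was at 26.3, 26.7 and 23.6 FPKM in GapNC and at 27.3, 24.9 and 0.475 FPKM in GapC9. As with EGR1, 1 GapC9 library, here replicate 3, stood apart, and the log2 difference of -1.80 became 0.03 without it. The AU-rich nonamer TTATTTATT that this protein reads occurred in the longest listed transcript of 9.27% of 15909 loci. Among the 10 members only FOS and IER5 held it, in these stretches of their GENCODE transcripts, with the nonamers in capitals.
FOS: tttttaatTTATTTATTaagatgga
IER5: gtcttcctTTATTTATTTATTTATT
The FOS stretch starts 8 bases before position 1998 of a transcript of 2158 bases, and the IER5 stretch 8 bases before position 3742 of 4188 bases, in the last part of each. ATTTA pentamers, a looser form, numbered 10 in IER5, 6 in IER3, 5 in FOS and in ATF3, 3 in JUN and 0 in IER2, around a median of 2 over all loci. Of the 1475 tested loci with the nonamer 2.58% were higher and 6.03% lower at an adjusted p under 0.05, and of the 14434 without it 1.82% and 5.03%. Neither ATF3 nor IER2 held the nonamer.

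Of 33 loci for AU-rich element binding proteins and the decay machinery, 1 was higher and 1 lower at an adjusted p under 0.05. CNOT6, a deadenylase of the CCR4-NOT complex, rose from 9.35 ± 0.994 to 15.7 ± 1.22 FPKM (SD, n = 3, limma adjusted p = 0.0306). EXOSC9, a subunit of the RNA exosome, fell from 16.1 ± 1.36 to 10.0 ± 0.217 FPKM (limma adjusted p = 0.0269). Both calls were lost in 5 of the 6 fits with 1 library left out, that of CNOT6 also with the GC correction (adjusted p = 0.0529) and that of EXOSC9 after median scaling (adjusted p = 0.0502). ZFP36L1, a relative of ZFP36, was at 10.6, 11.6 and 33.0 FPKM in GapNC and at 34.6, 42.0 and 46.1 FPKM in GapC9, and met the study's rule alone. Its GapNC replicate 3 was close to the GapC9 libraries.

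The kinases and SRF factors upstream of immediate early genes were lower by sign in 24 of 29 loci, where 56.4% of all tested loci were, with a median log2 difference of -0.24. That median was -0.12 after median scaling, -0.13 after quantile normalization, -0.09 with the GC correction and -0.13 without GapNC replicate 1. None of the 29 passed an adjusted p under 0.05 in limma, by the study's rule or without the trend. With no adjustment of p, at 0.05, 5 were lower and 0 higher, beside 16.8% and 9.09% of all loci. ELK1 and ELK4 were among the 5. ELK4, an SRF partner, was at 5.49 to 8.06 and at 3.67 to 5.0 FPKM, and ELK1, another, at 10.6 to 14.3 and at 7.23 to 10.4 FPKM. SRF itself was at 29.4, 25.0 and 22.7 FPKM and at 30.1, 15.1 and 28.4 FPKM, with the lowest value in GapC9 replicate 2.

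Of the 20 tested loci for AP-1 partners and related bZIP factors, 0 passed an adjusted p under 0.05 (limma; 2 higher and 4 lower at an unadjusted p under 0.05, and 1 with limma without the trend). Over all loci 9.09% were higher and 16.8% lower at that unadjusted threshold. The study's rule called 2 of the 20 lower, against 4.32% of all loci. The 2 were BACH2, at a level under 1 FPKM, and the joined locus of SIRT7 and MAFG, at 5.55, 11.1 and 11.6 FPKM in GapNC and at 4.42, 4.24 and 3.35 FPKM in GapC9. How much of that row is MAFG cannot be read from a joined value. ATF2, which pairs with JUN at CRE sites, was at 4.12 to 5.36 and at 3.62 to 4.22 FPKM. ATF4 ranged from 46.9 to 112 FPKM in GapNC and from 43.8 to 143 FPKM in GapC9, a wide spread within both groups.

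Of 19 tested AP-1 target genes 3 were higher and 0 lower at an adjusted p under 0.05, against 1.89% and 5.1% of all tested loci, and the median log2 difference was 0.20. With 1 library left out the count was 0, except 2 without GapNC replicate 1, and without GapC9 replicate 1 the median was 0.10. Among the 3 was LAMB3, which encodes a laminin chain. It was at 27.7, 21.1 and 21.0 FPKM in GapNC and at 50.8, 48.1 and 41.7 FPKM in GapC9 (log2 difference 1.02 ± 0.148, SE, limma adjusted p = 0.0255). With 1 library left out, LAMB3 stayed under the adjusted threshold in 1 of 6 fits. BCL2L11, which encodes the cell death protein BIM, was called lower by the study's rule, at 3.53 ± 0.465 and 1.35 ± 0.836 FPKM. CCND1, the cyclin D1 gene, was at 279 to 299 FPKM in GapNC and 257 to 274 FPKM in GapC9 and passed no rule.

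ATF3 is also a target of the stress factor ATF4, and 16 loci of the heat shock and ATF4 responses were tested. 2 were higher and 0 lower at an adjusted p under 0.05, against 1.89% and 5.1% of all tested loci. With 1 library left out the count was 0, except 2 without GapNC replicate 1, and it was 0 with no filter on low values. The 2 were PPP1R15A, counted among the immediate early genes as well, and ASNS, asparagine synthetase, in a joined locus at 20.9 ± 2.0 and 32.2 ± 1.99 FPKM (SD, n = 3), which passed in 1 of the 6 fits with 1 library left out. CHAC1, a glutathione-degrading enzyme, met the study's rule at 1.45, 0.336 and 0.337 FPKM in GapNC and at 2.20, 1.86 and 1.79 FPKM in GapC9. The median log2 difference of the list was -0.18, and single libraries moved it from -0.41 (without GapNC replicate 3) to 0.01 (without GapC9 replicate 2). Median scaling gave -0.07 and the GC correction -0.06.

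**Figure D5:**
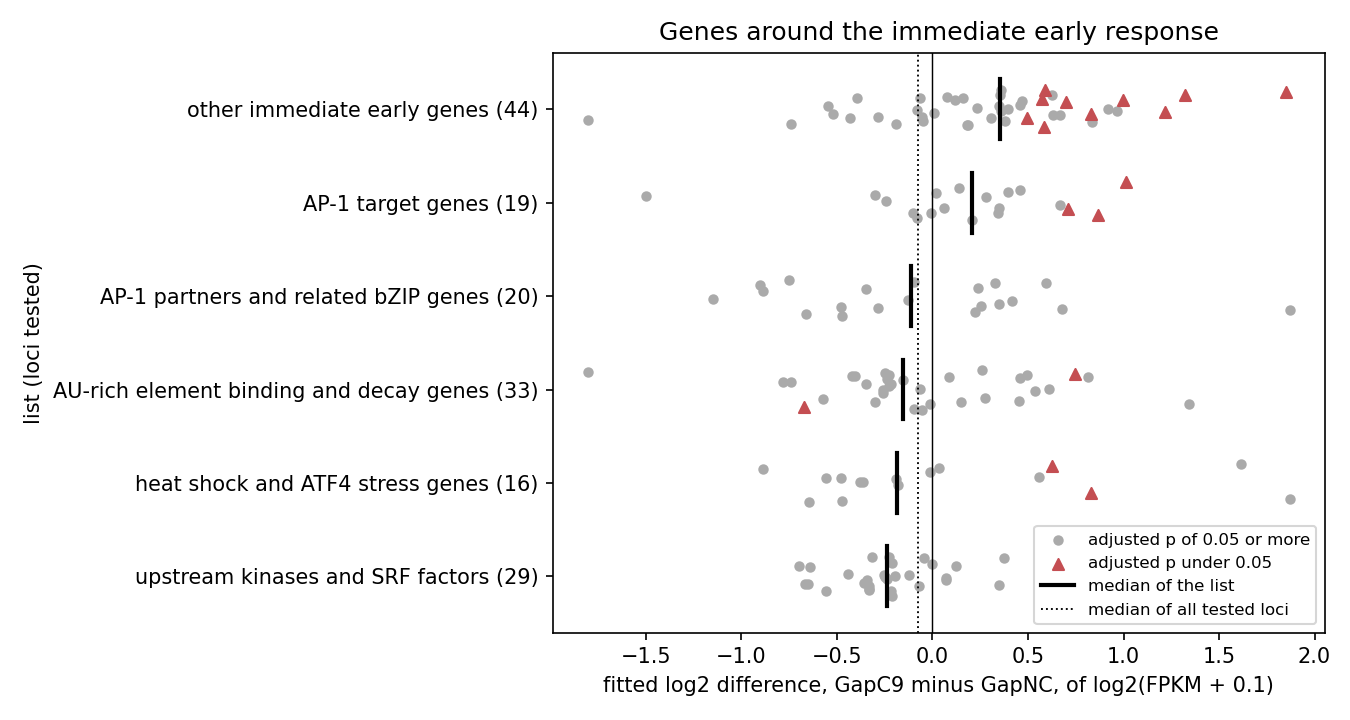
Fitted log2 difference (GapC9 minus GapNC, of FPKM plus 0.1) for each tested locus of 6 lists, with red triangles for an adjusted p under 0.05, black bars for list medians and the dotted line for the median of all tested loci, -0.08. 10 of 44 other immediate early genes are red and to the right of 0, and no locus of the 29 upstream kinases and SRF factors is red.

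The printed promoter elements were also counted over the tested loci with a promoter in the table. Of 136 loci with a CArG box 2.94% were higher and 6.62% lower at an adjusted p under 0.05, beside 1.87% and 6.19% of 9143 loci without one. Of 313 with a full CRE 4.15% were higher and 5.75% lower, beside 1.81% and 6.21% of 8966 without. For TGACG, the element in capitals in all 6 stretches, the shares were 1.9% higher and 5.87% lower of 3255 loci, beside 1.88% and 6.37% of 6024 without it. For the AP-1 site the shares were 1.4% and 5.78% of 571 loci, and 1.92% and 6.22% of the others.

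The sequence of the GapC9 GapmeR was compared with the transcripts of each member, since an antisense oligonucleotide can pair with other RNAs. The best ungapped match to its 16-base target had 6 mismatches in IER2 and 5 in ATF3, where 93% and 65.3% of 15909 loci matched with as few or fewer. For the GapNC GapmeR the fewest were 4 mismatches in IER2 (19.7% of loci with as few) and 5 in ATF3 (68.5%). Introns were not searched.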

How the data were processed

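RNA-seq of HCT-116 cells (3 GapNC and 3 GapC9 libraries) was read from 1 deposited table. The authors aligned reads with HISAT to a UCSC human genome whose build is not given in the sources used here, and deposited FPKM values computed by StringTie. Their differential calls came from edgeR, which needs counts and was not rerun. The submitters' processing notes also list HISAT2 2.0, StringTie 1.3.0, Bowtie 0.12.2 and mm8, the name of a mouse build, and their roles are not given. FPKM is relative to the library total, and assembled loci can merge adjacent genes or hold a listed 0. 0 columns of sample values were left unused, and samples were grouped by their titles.

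In R 4.3.3, limma 3.58.1 (lmFit, eBayes with trend, two-sided, Benjamini-Hochberg) was fitted to log2(FPKM + 0.1) of loci averaging at least 0.1 FPKM, all 6 libraries in 1 fit, after it was tested on simulated data. Log2 differences are on that scale and understate changes of low genes. The members and the gene lists were chosen with earlier results of these data known. Named were the members, 14 genes fixed by name in the other lists (FOSB, FOSL2, EGR2, EGR3, IER5L, DUSP1, MYC, SRF, ELK1, ELK4, ZFP36, ATF2, ATF4, CCND1), any list locus with an adjusted p under 0.05 or called by the study's rule with a mean of at least 1 FPKM in one group, the 3 genes nearest to IER2, and CASC9. NR4A3, BACH2 and the neighbors of members were added after their values were seen. Some loci that the rule names are not reported here. Exons, positions and transcript GC came from GENCODE v29 (GRCh38), matched by transcript identifier. Same-numbered GapNC and GapC9 libraries were not taken as pairs. Alternatives were other pseudocounts, filters, scalings, a GC correction, a replicate block, limma without trend, each library left out, and, chosen after seeing the data, no locus listed at 0.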

Additional observations from a re-analysis of the deposited data

How the results depend on the processing

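IER2 stayed lower and ATF3 higher under every alternative run, and leaving out 1 library gave 1 to 2 members at least 2-fold apart. No ratio could be given for JUNB without replicate 1 of either group. Deviations of same-numbered libraries correlated at 0.113, 0.0362 and 0.0332, and those of differently numbered libraries at -0.119 to 0.0867. Correlations this weak cannot settle whether the numbers pair the libraries. With the replicate block 0 loci passed an adjusted p under 0.05 (limma; 1618 higher and 2952 lower at an unadjusted p under 0.05), hence 0 in each list and 0 among single-exon loci. Over all loci the adjusted count of 1120 was 492 with no filter, 2377 with the GC correction and 34 to 814 with 1 library left out. The study's rule gave 496 at a mean of at least 1 FPKM, against 1029.

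Adjusted counts under no filter, GC correction and 1 library left out were 5, 17 and 1 to 7 for other immediate early genes (10 in the report). They were 0, 4 and 0 to 2 for stress genes (2, and 1 without trend). With the GC correction and 1 library left out they were 9 and 0 to 2 for AP-1 targets, 7 and 0 to 3 for decay genes (1 after median scaling), and 1 and 0 to 1 for AP-1 partners (also 1 without trend and with no locus listed at 0). Upstream kinases gave 3 with the GC correction, 1 at a mean of at least 1 FPKM, 2 with no locus listed at 0 and 0 to 1 with 1 library left out. Single-exon loci gave 52, 18, 20 and 13 to 34. By the study's rule, a mean of at least 1 FPKM gave 3 other immediate early genes, 1 AP-1 partner and 23 single-exon loci, no filter 168 and no locus listed at 0 27 single-exon loci, and the GC correction 1 partner and 2 stress genes. 1 library left out gave 0 to 3 targets, 0 to 1 decay genes and 0 to 1 stress genes.

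Signs turned for ATF4 (-0.149 to 0.798 with 1 library left out: -0.149, -0.0248 and -0.0546 without GapNC replicate 1, GapC9 replicate 1 or GapC9 replicate 3), CCND1 (0.0116 after median scaling, 0.00533 with the GC correction), ZFP36 (-2.75 to 0.0322, the latter without GapC9 replicate 3) and SRF (0.189 with the GC correction, -0.301 to 0.192 with 1 library left out, the latter without GapC9 replicate 2). Causes were not tested beyond the construction of each alternative. Depth limits genes under 1 FPKM most.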

Other observations

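The nearest loci averaging at least 1 FPKM on each side of each member were looked up after the members' values were seen. Those described below were picked after their own values were seen, and 34.2% of all tested loci had groups that did not overlap. DDR1 beside IER3 and RAB3A beside JUND were lower in GapC9 without overlap, and MR1 beside IER5 and MYSM1 beside JUN were higher. Others overlapped, among them CCDC130 beside IER2, PRDX2 beside JUNB and ETF1 beside EGR1. STX10, a syntaxin of the Golgi, starts 32 bases from IER2 on the opposite strand of chromosome 19. It was at 30.9, 27.9 and 25.1 FPKM in GapNC and at 16.5, 11.7 and 14.0 FPKM in GapC9, with no overlap (log2 difference -0.99 ± 0.157, SE, limma adjusted p = 0.0289). CCDC85B lies 414 bases from FOSL1 on the opposite strand. It was at 42.9, 26.3 and 24.0 FPKM in GapNC and was listed at 0 in all 3 GapC9 libraries, which can be a failed estimate. The ratio of means of FOSL1 was 0.997. BATF3, a bZIP partner of Jun proteins and the next such locus after ATF3, was at 1.36 to 1.87 FPKM in GapNC and at 0.637 to 1.15 FPKM in GapC9 (limma adjusted p = 0.0812), the opposite direction to ATF3.

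RHOB, a single-exon immediate early gene, was at 41.7, 33.9 and 0 FPKM in GapNC and at 34.5, 36.8 and 0 FPKM in GapC9. BTG2 was at 0.245, 9.42 and 9.45 FPKM in GapNC and at 17.6, 19.0 and 0.145 FPKM in GapC9. Both were looked at after their values were seen. At 68 single-exon loci, libraries were at least 4 times apart in both groups. The low libraries carried the same replicate numbers in both groups at 17 of them, among them JUNB. The counts were 28 of 120 for multi-exon loci and 51 of 209 for all loci, a like share, so nothing is read from the 17.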
